A study of Drosophila melanogaster with 8 samples.

Results

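The 10 genes described here code for heat shock and Hsc70 chaperones of Drosophila melanogaster, and they were chosen by their FlyBase identifiers from the 17559 genes of the deposited tables. By the place where their proteins mainly work, 5 were set apart as cytosolic (DnaJ-1, Hsp83, Hsp23, Hsp26 and Hsp27), 2 as chaperones of the endoplasmic reticulum, ER (Hsc70-3 and Gp93), and 3 as mitochondrial (Hsp60, Hsc70-5 and Hsp22). The data are RNA immunoprecipitation sequencing (RIP-seq) of SL2 cells, a male embryonic cell line, transfected with a FLAG-3xHA-tag fusion of Sex-lethal (SXL), of Sister of Sex-lethal (SSX) or of green fluorescent protein (GFP). All 3 kinds of fusion were collected with the mouse monoclonal anti-FLAG M2, and the RNA that came along was sequenced; the GFP precipitates give the background of the antibody, the tag and the transfection. There were 2 SXL, 3 SSX and 2 GFP libraries, and 1 input sample was not analysed here. No heat shock or other stress is named in the labels, and male cells such as SL2 normally lack functional SXL protein.

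Chaperones bind other proteins while these fold, travel through membranes or are damaged. Members of the HSP70 family work with J proteins such as DnaJ-1, which deliver clients and start the ATP cycle, and HSP90 proteins act later on clients such as kinases and receptors. Small heat shock proteins hold unfolded proteins without using ATP, and most of their genes are strongly induced by heat shock factor, while the Hsc70 "cognate" genes are active without stress. SXL and SSX are related RNA-binding proteins, and SXL is known to bind runs of uridine in introns and untranslated regions.

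The GFP libraries were shallow, which limits each comparison with them. Normalized counts are reads divided by the authors' size factor of each library. Over the 956 genes that the authors listed as enriched, the SXL and SSX libraries held between 3266209 and 4429899 reads and the GFP libraries 20859 and 27467. One GFP read was therefore worth 11.3 or 8.30 normalized counts, against 0.278 to 0.535 in the other libraries. Of 16 markers of the hemocyte-derived SL2 line, 2 carried a name here, and their mean normalized counts over the 7 libraries were 3064 (srp) and 3807 (LanA); the other 14 were not looked up. By the authors' deposited tables srp was higher than GFP (log2 0.92 for SXL, 2.46 for SSX) and LanA lower (-1.23 and -1.03). Of 22 markers of 5 other cell types 6 carried a name, all 6 of them from the authors' lists. By the authors' deposited tables SXL had 2 of these higher than GFP and SSX 6, at an adjusted p under 0.05. Over all tested genes, 16.4% were higher with SXL and 26.2% with SSX. The count of 6 with SSX follows from that listing and is no evidence on these cell types. The part of these markers in the chaperone results was not tested. In bulk libraries like these, fewer cells with an RNA and less RNA per cell cannot be told apart, and a fold against GFP is a share of the precipitate, not a level in the cell.

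DnaJ-1, Hsc70-3 and Hsp60 were higher with both SXL and SSX than with GFP, 1 from each of the 3 compartments. Gp93 and Hsc70-5 were lower with SSX than with GFP, so the ER and the mitochondrial chaperones each held a gene on either side. Of the 10 members, 7 had a test of SXL against GFP in the authors' deposited table, and at an adjusted p under 0.05 it put 3 higher and 0 lower, where 16.4% of all 7170 tested genes were higher, 13.0% lower and 29.4% either. For SSX against GFP the authors' deposited table tested 9 members, with 3 higher and 2 lower, against 26.2% and 19.3% of 9034 tested genes, or 45.4% in either direction. By the authors' deposited tables the median log2 fold change of the members tested was -0.43 for SXL, beside 0.09 over all tested genes. For SSX it was -0.10, beside 0.44. That SSX median is the value of Hsp26 itself, which had 1 GFP read and allows no fold against GFP. It therefore says little about the members as a set. Both comparisons use the same GFP libraries. All 3 enriched members had been listed by the authors at an adjusted p under 0.001 and more than 2 on the log2 scale (2.78% of tested genes with SXL, 10.5% with SSX), DnaJ-1 for both proteins and the other two for SSX only, so that having counts per library is itself a result of their enrichment.

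**Figure D1:**
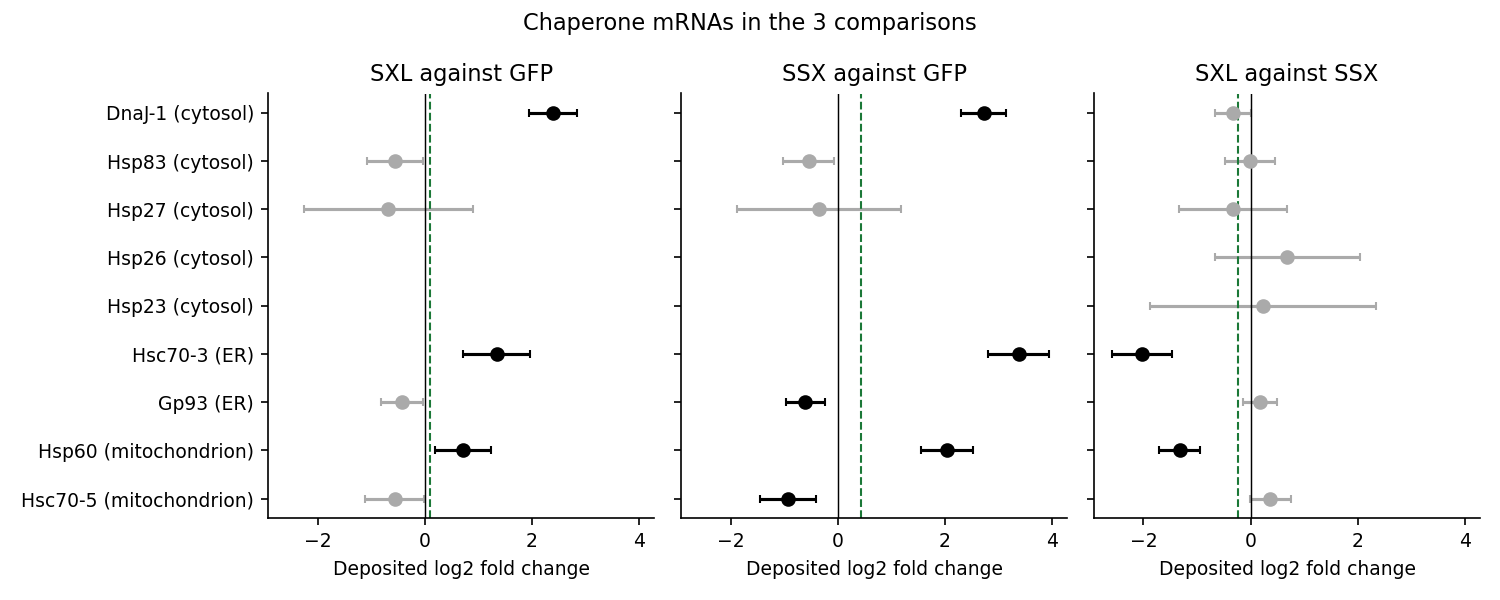
Deposited log2 fold changes (horizontal axis) of the members in the 3 comparisons, with bars of the 95% interval; black points passed an adjusted p of 0.05, grey points did not, and the green dashed line is the median of all tested genes. Hsp22 had no value, and Hsp23 and Hsp26 are drawn only for SXL against SSX, since they had 0 and 1 GFP reads. DnaJ-1, Hsc70-3 and Hsp60 lie to the right in both GFP comparisons, and Hsc70-3 and Hsp60 lie to the left for SXL against SSX.

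Among the cytosolic chaperones, the J protein DnaJ-1 was enriched with both SXL and SSX. Normalized counts of DnaJ-1 (FBgn0263106, 3L, 5750029 to 5752189, minus strand, BDGP6) came to 519 and 548 for GFP, 2675 and 3059 for SXL, and 3205, 3661 and 3913 for SSX. Every SXL and SSX library lay above both GFP libraries, and the lowest of them was 4.88 times the highest GFP value. For GFP the mean of DnaJ-1 was 534 ± 20.4 (SD, n = 2), for SXL 2867 ± 271 (SD, n = 2) and for SSX 3593 ± 359 (SD, n = 3). Its log2 fold change against GFP was 2.40 with SXL (SE 0.23, adjusted p = 9.4e-24) and 2.72 with SSX (SE 0.22, adjusted p = 1.4e-34) in the authors' deposited tables. The GFP side rested on 112 DnaJ-1 reads, which gives 95% counting intervals of 4.46 to 6.52 for the SXL over GFP ratio and 5.54 to 8.11 for SSX over GFP. These intervals are exact binomial ones and cover counting error only, and reads without molecular identifiers are not independent molecules.

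**Figure D2:**
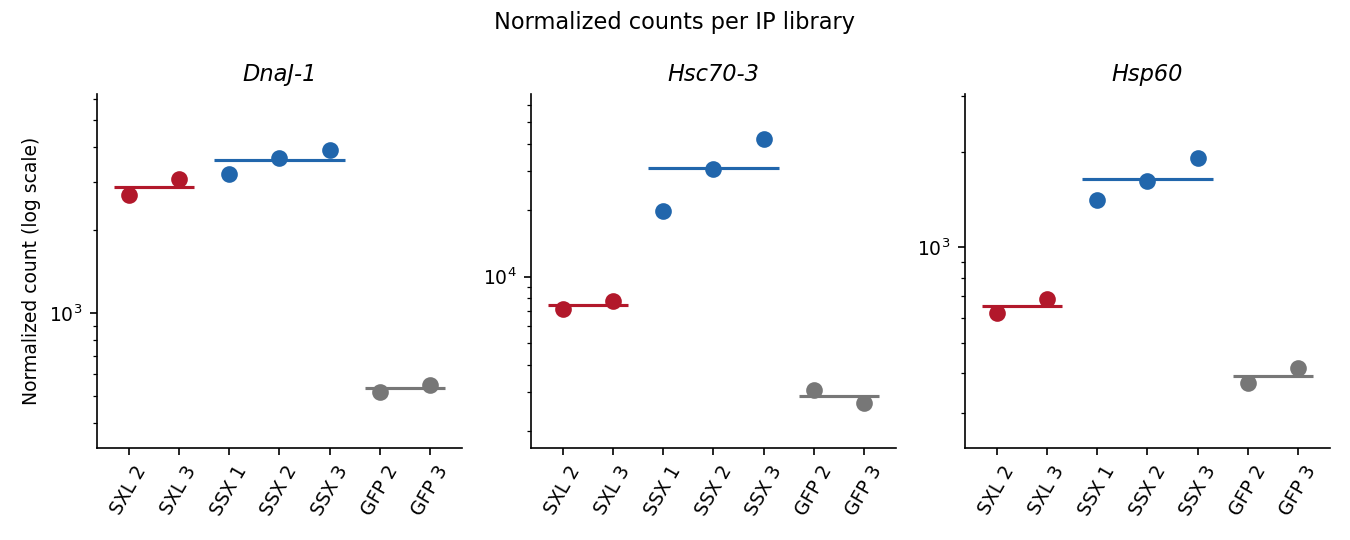
Normalized counts (vertical axis, log scale, a range of its own for each gene) of DnaJ-1, Hsc70-3 and Hsp60 in each IP library, with library numbers as in the column names; lines are group means. Every SXL and SSX library lies above both GFP libraries for each gene, and for Hsc70-3 and Hsp60 the SSX libraries also lie above both SXL libraries. All 3 genes have counts because they were listed as enriched over GFP, so a separation from GFP partly follows from that selection. Of the 956 listed genes, 947 had been listed for SSX, and 865 were lower with SXL than with SSX.

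Hsp83 (FBgn0001233, 3L, 3192969 to 3197059), the cytosolic HSP90, was not enriched. Its log2 fold change was -0.56 with SXL (SE 0.27, adjusted p = 0.102) and -0.54 with SSX (SE 0.24, adjusted p = 0.056) in the authors' deposited tables, so neither passed. The group means that these values imply are 3797 with GFP, 2583 with SXL and 2608 with SSX, with no spread since counts per library were not used for this gene. Relative to the median of all tested genes, Hsp83 fell with SSX, at -0.98 on the log2 scale (adjusted p = 0.00026 after centring the authors' deposited table).

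The small heat shock genes Hsp23, Hsp26 and Hsp27, which lie close together on 3L, were close to the detection limit in the GFP libraries. Their reads per library were worked out from the deposited mean, since only 1 set of whole read numbers gives each mean. Hsp23 (9381882 to 9382765) had 8 and 5 reads in the SXL libraries, 4, 2 and 3 in the SSX libraries and 0 in both GFP libraries. Hsp26 (9376418 to 9377427) had 26 and 31 reads with SXL, 10, 6 and 13 with SSX, and 1 and 0 with GFP. No fold against GFP can be given for either gene, because all group means were under 14.4 normalized counts, the floor that 3 reads in both GFP libraries together would give. Between the proteins, Hsp26 was 8.22 ± 0.58 (SD, n = 2) with SXL and 4.90 ± 1.94 (SD, n = 3) with SSX in normalized counts, and both SXL libraries lay above the 3 SSX libraries. That difference did not pass in the authors' deposited table (log2 SXL over SSX 0.68, SE 0.69, adjusted p = 0.459).

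Hsp27 (FBgn0001226, 9384063 to 9385694), which is also found in the nucleus, had the most reads of the small heat shock genes. Its normalized counts were 10.8 and 11.7 with SXL, 8.38, 16.0 and 18.7 with SSX, and 22.6 and 16.6 with GFP, where each GFP value stands for 2 reads. The SSX and GFP libraries overlapped, and the SXL libraries lay below both GFP libraries. With 4 GFP reads in all, the ratio of SXL to GFP was 0.589 (95% counting interval 0.221 to 2.21) and that of SSX to GFP 0.737 (0.277 to 2.77). Neither test of Hsp27 in the authors' deposited tables passed (SXL adjusted p = 0.568, SSX adjusted p = 0.726), and a change within these intervals was not detectable at this depth.

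**Figure D3:**
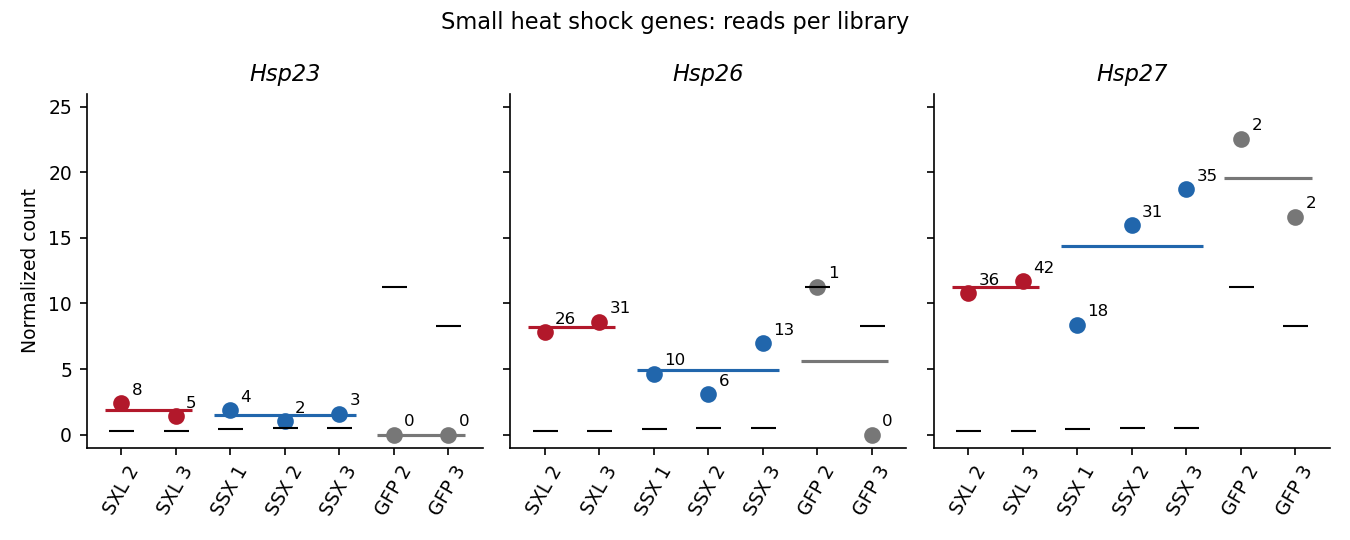
Normalized counts (vertical axis) of Hsp23, Hsp26 and Hsp27 in each IP library, with the number of reads beside each point; lines are group means and the short black dashes mark what 1 read is worth in that library. The dashes of the GFP libraries stand at 11.3 and 8.30, above every SXL and SSX value of Hsp23.

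Of the ER chaperones, Hsc70-3 (the fly BiP, the HSP70 of the ER lumen) was enriched with both proteins and much more with SSX, while Gp93, the ER HSP90, was not enriched with either. Normalized counts of Hsc70-3 (FBgn0001218, X, 11801696 to 11807117, minus strand) came to 3081 and 2690 for GFP, 7165 and 7758 for SXL, and 19888, 30713 and 42133 for SSX. The 3 groups did not overlap. The authors' deposited tables gave it a log2 fold change of 1.35 with SXL (SE 0.32, adjusted p = 0.00022) and 3.37 with SSX (SE 0.29, adjusted p = 5.3e-29). For GFP the mean of Hsc70-3 was 2885 ± 276 (SD, n = 2), for SXL 7461 ± 420 (SD, n = 2) and for SSX 30911 ± 11124 (SD, n = 3). The SSX libraries differed among themselves by a coefficient of variation of 36.0%, larger than in 95% of the 956 listed genes (median 19.9%); with each library left out in turn, the edgeR log2 fold change of SSX over GFP stayed between 3.13 and 3.66.

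For Gp93 (FBgn0039562, 3R, 27948711 to 27952151) the log2 fold change was -0.43 with SXL (SE 0.20, adjusted p = 0.094) and -0.60 with SSX (SE 0.19, adjusted p = 0.0038) in the authors' deposited tables. After centring on the median of tested genes, Gp93 was lower with SXL too (-0.51, adjusted p = 0.036). Gp93 fell with SSX, to an implied mean of 832 against 1264 with GFP, and its implied mean with SXL was 941. Hsc70-3 and Gp93 stood apart by 1.77 (SE 0.38) on the log2 scale with SXL and by 3.98 (SE 0.35) with SSX, with both genes taken as independent; no p is attached, since the genes share libraries. The annotated span of Gp93 shares 101 bp with CG4951, and reads there could not be assigned to one gene if strand was not used.

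Of the mitochondrial chaperones, Hsp60 was enriched and Hsc70-5 was not. Normalized counts of Hsp60 (FBgn0015245, X, 11108482 to 11112308, plus strand), the chaperonin of the mitochondrial matrix, were 621 and 687 with SXL, 1407, 1617 and 1915 with SSX and 372 and 415 with GFP. No 2 groups overlapped, but the SXL and GFP libraries lay close, with the lowest SXL value at 1.5 times the highest GFP value. The authors' deposited tables had Hsp60 at a log2 fold change of 0.71 with SXL (SE 0.26, adjusted p = 0.026) and 2.04 with SSX (SE 0.25, adjusted p = 4.1e-15). The SXL call of Hsp60 was lost after centring on the median of tested genes (0.62, adjusted p = 0.058). In edgeR, with a log2 fold change of 0.73 over all libraries, it was also lost without SXL library 2 (0.80, adjusted p = 0.065), SXL library 3 (0.65, adjusted p = 0.136), GFP library 2 (0.66, adjusted p = 0.136) or GFP library 3 (0.81, adjusted p = 0.086). Each of these 4 fits leaves 1 library in a group, which is assumed to vary like the other groups. The call was kept in DESeq2 (adjusted p = 0.016) and in edgeR without any 1 of the SSX libraries. With SSX, Hsp60 stood just above the authors' threshold of 2, in place 923 of 947 genes listed.

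Hsc70-5 (FBgn0001220, 2R, 14252598 to 14256192), the mitochondrial HSP70 that pulls imported proteins into the matrix, fell with SSX. Its log2 fold change was -0.93 with SSX (SE 0.27, adjusted p = 0.0018) and -0.56 with SXL (SE 0.28, adjusted p = 0.113) in the authors' deposited tables. The implied means were 278 with GFP, 188 with SXL and 146 with SSX, and the GFP mean corresponds to about 58 reads. Hsp60 and Hsc70-5 stood apart by 2.96 (SE 0.36) on the log2 scale with SSX. The small heat shock gene Hsp22, whose protein lies in mitochondria, was listed at a mean normalized count of 0. The RefSeq span of Hsp22 (3L, 9372931 to 9374964) lies wholly, over 2034 bp, within that of CG4456, and whether the counting left out shared reads is not given in the sources used here.

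In the direct comparison of the proteins, Hsc70-3 and Hsp60 were higher with SSX and the other members did not pass. The log2 of SXL over SSX was -2.03 for Hsc70-3 (SE 0.29, adjusted p = 6.3e-11) and -1.32 for Hsp60 (SE 0.19, adjusted p = 3.2e-10) in the authors' deposited table. Under scalings over the listed genes alone, most of which were lower with SXL, edgeR no longer called Hsp60 (-0.074 with TMM, adjusted p = 0.666). With TMM, Hsc70-3 stayed lower (-0.76, adjusted p = 0.0081) and DnaJ-1 turned to higher with SXL (0.93, adjusted p = 4.2e-05). These scalings centre genes of which 947 had been listed for SSX, so they cannot test a direction between SXL and SSX. On the authors' scale DnaJ-1 had -0.33 (SE 0.17, adjusted p = 0.120) in the authors' deposited table, with a 95% interval of -0.66 to 0.01, so a difference of up to that size is not excluded. Of the 9 members tested, the authors' deposited table put 0 higher with SXL and 2 lower, where 11.5% of 9500 tested genes were higher, 25.9% lower and 37.4% either. Of the 956 listed genes 865 were lower with SXL (median -1.23). DnaJ-1 stood in place 42 from the top, Hsp60 in place 557 and Hsc70-3 in place 860 of this order. Of these 956 genes, 947 had been listed for SSX, so the order runs over genes selected as high with SSX. Among all 9500 tested genes, DnaJ-1 stood above 46.5%, Hsp60 above 17.8% and Hsc70-3 above 8.2%. Of the other members, Hsc70-5 had 0.36 (SE 0.19, adjusted p = 0.131), Gp93 0.18 (SE 0.16, adjusted p = 0.415) and Hsp83 -0.01 (SE 0.24, adjusted p = 0.977) in the authors' deposited table. With that table centred on the median of tested genes (-0.23), Hsc70-5 (0.59, adjusted p = 0.0085) and Gp93 (0.41, adjusted p = 0.037) were higher with SXL, and Hsc70-3 (-1.80) and Hsp60 (-1.09) still lower. The same centring moved the share of higher among all called genes from 30.8% to 46.8%, and for SSX against GFP, whose median was 0.44, from 57.6% to 42.5%.

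**Figure D4:**
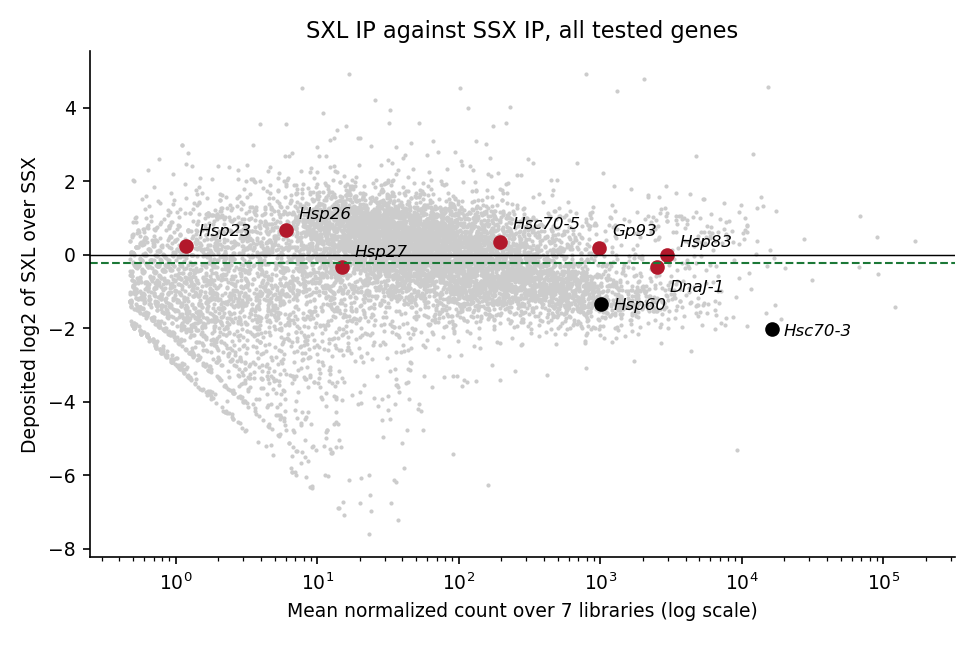
Deposited log2 of SXL over SSX (vertical axis) against the mean normalized count over the 7 libraries (horizontal axis, log scale) for all 9500 tested genes in grey; the members are named, in black where the adjusted p was under 0.05 and in red otherwise, and the green dashed line is the median of tested genes. Hsc70-3 and Hsp60 lie at -2.03 and -1.32, and the other 7 members between -0.33 and 0.68.

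Ratios of reads within 1 library do not depend on how the libraries were scaled, and they separated the 3 members with counts. DnaJ-1 reads per Hsc70-3 read were 0.168 and 0.204 for GFP, 0.373 and 0.394 for SXL, and 0.161, 0.119 and 0.0929 for SSX. DnaJ-1 was therefore highest against Hsc70-3 with SXL, and the mean ratio with SXL was 3.09 times that with SSX. The GFP and SSX ratios did not overlap but came close, at 0.168 against 0.161. With 46 and 66 DnaJ-1 reads in the GFP libraries, the order of GFP and SSX is not settled. DnaJ-1 reads per Hsp60 read were 1.39 and 1.32 for GFP, 4.31 and 4.45 for SXL, and 2.28, 2.26 and 2.04 for SSX. Hsp60 per Hsc70-3 was 0.0866 and 0.0886 with SXL, 0.0708, 0.0527 and 0.0455 with SSX and 0.121 and 0.154 with GFP. A two-sided exact permutation test of SXL against SSX gave p = 0.2 for each of the 3 ratios, which is the smallest p that 2 against 3 libraries can give. These ratios are of reads and not per length, so only their change between libraries is read here. Hsc70-3 and Hsp60 have counts only through the list for SSX, and DnaJ-1 through both lists. A higher ratio of DnaJ-1 to either gene with SXL than with SSX thus partly follows from that selection. Other pairs of listed genes were not compared.

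**Figure D5:**
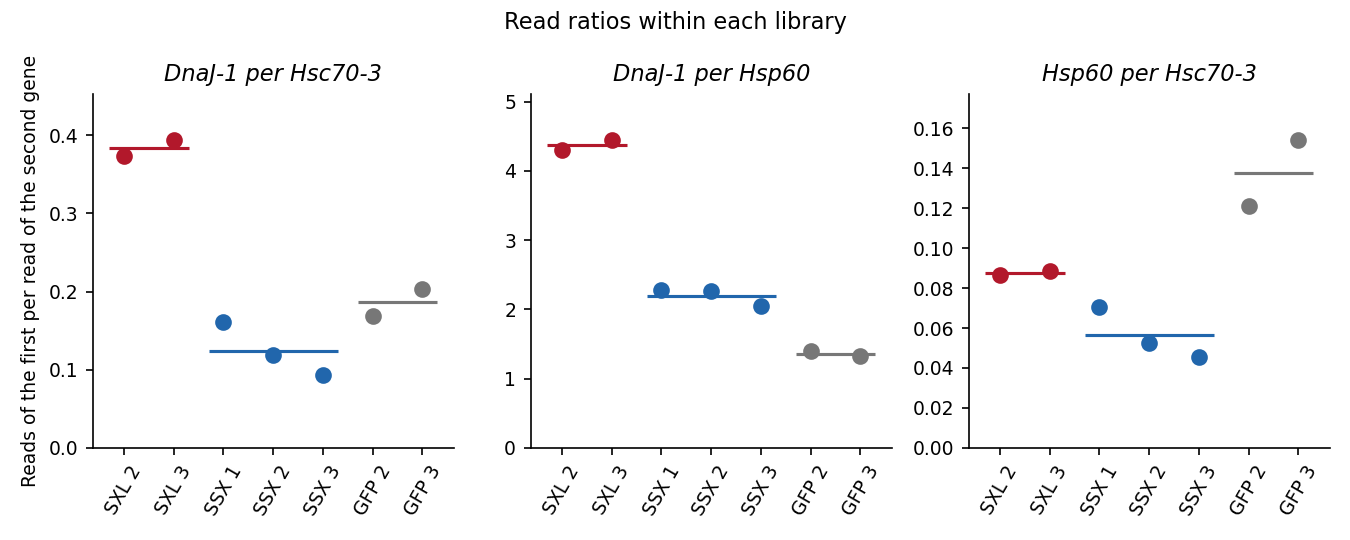
Reads of one gene per read of another within each IP library (vertical axes, from 0), for the 3 pairs of members with counts; points are libraries and lines are group means. DnaJ-1 per Hsc70-3 is 0.373 and 0.394 with SXL and at most 0.204 elsewhere.

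The order of the members' levels differed between the groups. Normalized counts per kb of gene span, introns included, were in the GFP libraries 928 for Hsp83, 532 for Hsc70-3, 367 for Gp93, 247 for DnaJ-1, 103 for Hsp60 and 77.2 for Hsc70-5. With SXL the order was Hsc70-3 (1376 per kb), DnaJ-1 (1327), Hsp83 (631), Gp93 (274), Hsp60 (171) and Hsc70-5 (52.2). With SSX it was Hsc70-3 (5701 per kb), DnaJ-1 (1663), Hsp83 (637), Hsp60 (430), Gp93 (242) and Hsc70-5 (40.6). The levels of Hsp83, Gp93 and Hsc70-5 are implied means without a spread, so which neighbours in these orders differ was not tested. The members that moved up, DnaJ-1, Hsc70-3 and Hsp60, had all been listed as enriched over GFP. The changed order thus partly restates that selection. Hsc70-3 and Hsp60 are X-linked and DnaJ-1 is on 3L; at 5422, 3827 and 2161 bp all 3 are shorter than the median listed gene (7359 bp). By Euclidean distance over both log2 fold changes against GFP, the listed genes most like DnaJ-1 were dbo (0.09 away) and ap (0.13), those most like Hsc70-3 were ttv (0.09) and CG4004 (0.09), and those most like Hsp60 were GlcAT-P (0.01) and uzip (0.02).

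Of 84 genes of chaperone and stress pathways, 10 were the members and 4 others carried a name here, so 70 were not looked up. The 4 are the J proteins Csp, a chaperone of synaptic vesicles, and wus, and the sensors of ER stress Ire1 and Atf6. All 4 rose with SSX in the authors' deposited table, with log2 fold changes of 2.79 (Csp), 3.03 (wus), 2.24 (Ire1) and 2.39 (Atf6). The value of wus is the least certain, with an SE of 0.77 against 0.32 to 0.36 for the others. Its mean normalized count over the 7 libraries was only 58.2. With SXL, Csp (1.85), Ire1 (1.26) and Atf6 (1.43) rose, while for wus the authors' deposited table gave 1.37 (adjusted p = 0.186). These 4 had their names from the authors' list for SSX, so their direction is not independent evidence.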

How the data were processed

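The submitters' processing notes name featureCounts, TopHat2, Trimmomatic, DESeq2, DESeq and the build BDGP6; versions, roles and use of strand are not given in the sources used here. Per the file headers, the authors deposited 3 full tables with a mean normalized signal per gene, log2 fold changes with standard errors, a test score, p-values and adjusted p-values, and 2 lists of enriched genes with read counts for each library; 14 further columns of normalized values, 7 in each list, were not used. The lists add gene names and BDGP6 coordinates.

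Results are those of the deposited tables, adjusted over all genes tested there. On counts of the 956 listed genes, selected on the outcome, edgeR 4.0.16 (R 4.3.3, quasi-likelihood, authors' size factors) and DESeq2 1.42.0 showed dependence on settings only. The edgeR fit was tested on simulated data for SXL against SSX, and not for the comparisons with GFP. The authors' size factors were solved from the deposited means, each the mean over 7 libraries of counts over size factor, and returned all 956 means within 1e-13. Reads of Hsp23, Hsp26 and Hsp27 are the only whole numbers whose scaled sum equals 7 times the deposited mean within 1e-12; the same search returned the counts of the listed genes of lowest mean in 5 of 5 cases. Implied group means solve the deposited mean and both log2 fold changes; over 235 listed genes with at least 50 GFP reads, the median error was 1.98% for GFP, 0.293% for SXL and 0.267% for SSX, and the largest was 84.1% for GFP, for snRNA:LU. Coordinates come from RefSeq Release 6, matched by symbol (10 of 10) and equal to the lists' for 3 of 3. Python 3.11.15, scipy 1.17.1, numpy 2.4.6, pandas 2.3.3 and matplotlib 3.10.9 were used.

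Columns name the group, but their numbers do not follow the sample titles, so libraries are named by column number. Separate cultures are not named in the labels, and the spread behind the p-values may thus be technical. Library pairs of a group differed by more than sampling noise (GFP pair, the closest, chi-square per degree of freedom 1.18, p = 0.00014), so none was counted as a duplicate. That test cannot tell whether the libraries of a group came from separate cultures. The members, compartments and lists were chosen with earlier results of these data known. The rule for named genes took all members, every gene of 9 chaperone lists that carried a name, and the 2 nearest listed genes of each member with counts; markers, overlapping genes and those of a check or a closing observation are named outside it. Alternatives covered thresholds, filters, centring, scaling, the test, single libraries and a replicate block. No sequences were used.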

Additional observations from a re-analysis of the deposited data

How the results depend on the processing

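Over thresholds, filters, centring and adjustment, the number of members called moved by over 1.5 times in 2 cases: to 3 with SSX when a change of at least 1 on the log2 scale was also required (Gp93 and Hsc70-5 were lost), and to 4 for SXL against SSX after centring. For SXL against GFP the count stayed at 3 after centring, but Hsp60 was lost and Gp93 became lower, which gives 2 higher and 1 lower. Scaling over the listed genes alone centres genes that were selected as enriched, and by that construction it cannot test a direction against GFP. Of these genes, 947 had been listed for SSX and 865 were lower with SXL than with SSX. Such scaling therefore cannot test a direction of SXL against SSX either. Under TMM, equal totals or DESeq2 size factors over those genes, edgeR called 1 of the 3 members with counts for SSX against GFP (Hsp60, lower). In that order of scaling, the log2 values that turned sign were -0.19, -0.72 and -0.28 for Hsc70-3 with SXL, -0.83, -1.38 and -0.93 for Hsp60 with SXL, -0.062, -0.36 and -0.073 for DnaJ-1 with SSX, -0.76, -1.06 and -0.77 for Hsp60 with SSX, and 0.93, 0.69 and 0.84 for DnaJ-1 with SXL over SSX, where DnaJ-1 became called (adjusted p = 4.2e-05, 0.00051 and 8.7e-05). Hsp60 with SXL over SSX lost its call, at -0.074, -0.31 and -0.16 (adjusted p = 0.666, 0.075 and 0.326). With libraries left out in turn, edgeR values of SXL over SSX ranged from -2.29 to -1.76 for Hsc70-3, -1.43 to -1.21 for Hsp60 and -0.43 to -0.23 for DnaJ-1, which passed without SSX library 1 (-0.40, adjusted p = 0.015).

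Whether the column numbers pair the libraries was not settled. The differences between libraries 3 and 2 correlated across listed genes by 0.12 (SXL and SSX), -0.03 (SXL and GFP) and 0.06 (SSX and GFP). Low values with GFP cannot exclude a pairing, since the shallow GFP libraries differed from each other by little more than sampling noise. With the column number as a replicate block, edgeR called 3 members for each GFP comparison and 3 for SXL against SSX, where DnaJ-1 had -0.40 (adjusted p = 0.0057). Only SSX has a library of number 1, so the block absorbs that library. The fit is thus close to the one without SSX library 1, where DnaJ-1 also had -0.40, and is no separate check. Depth on the GFP side limits the small heat shock genes most.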

Other observations

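Of the 956 listed genes, 11 carried the annotation "response to heat" in the authors' lists, 3 of them members. The long noncoding RNA Hsromega, which gathers in nuclear speckles and is strongly induced by heat, was the most enriched of the 8 others with SSX. Normalized counts of Hsromega (3R, 21296127 to 21317836) were 1284 and 1609 with SXL, 7889, 8062 and 10921 with SSX and 372 and 382 with GFP, so the 3 groups did not overlap. The authors' deposited tables gave Hsromega a log2 fold change against GFP of 4.51 for SSX (adjusted p = 6.8e-62) and 1.90 for SXL (adjusted p = 6.0e-10), and a log2 of SXL over SSX of -2.61 (adjusted p = 7.9e-31). The RNA-editing enzyme gene Adar had 3.53 for SSX, 3.01 for SXL and -0.52 between them (adjusted p = 0.086) in the authors' deposited tables. The GFP side of Adar held 7 reads. Both genes were picked here after their values were seen, and all 11 had been selected for enrichment.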
